A study of Homo sapiens with 11 samples.

Results

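The genes described here are 46 interferon-stimulated genes, picked by symbol from a list of genes known to respond to interferon. All 46 were among the 23228 genes counted in each of 11 RNA-seq libraries, and all 46 passed the filter on low counts that kept 15888 genes for testing. The libraries came from MDA-MB231, a basal breast cancer cell line, and U2OS, an osteosarcoma cell line, both grown in DMEM with serum. U2OS had 1 library each for the vehicle DMSO, doxorubicin (1 µM), etoposide (20 µM), methyl methanesulfonate (MMS, 40 µg/mL) and paclitaxel (0.2 µM), each drug given for 8 h. MDA-MB231 had 1 library for each of the same drugs at the same doses and time, and 2 DMSO libraries. The second of these carries the vehicle label DMSO but is described as untreated, and it shares its title form, which names the time, with the MDA-MB231 MMS library only. Doxorubicin and etoposide poison topoisomerase II, MMS alkylates DNA and paclitaxel stabilises microtubules. No interferon was added to any group, and the doses were those that inhibit growth, per the submitters.

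Type I interferons bind a receptor at the cell surface whose kinases, JAK1 and TYK2, phosphorylate STAT proteins. With IRF9 these form a complex that binds the interferon-stimulated response element (ISRE) in the promoters of interferon-stimulated genes, while IRF1, IRF3 and IRF7 bind related elements and can switch on part of the same genes without interferon. The products block virus entry, degrade or bind foreign RNA, present antigen and attract lymphocytes, and many of them are also known to respond to damaged DNA in tumour cells.

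Promoter windows that carry the element are shown because genes with the same element moved in different directions. RefSeq windows around the transcription start (GRCh38.p14) were matched for 34 of the 46 genes. None was matched for IRF3, IRF7, IFIT2, IFITM2, MX2, OAS2, OASL, DHX58, USP18, UBA7, TRIM22 and PML. Each stretch below lies upstream of the start, reads 5′ to 3′ on the strand of the gene, and has in capitals every match to the core of the ISRE on either strand, so that overlapping matches run together. The core searched for was GAAA, any 2 bases and GAAA again, which on the other strand reads TTTC, any 2 bases and TTTC. The first 5 genes were higher with doxorubicin, the next 3 lower, and the last 2 passed no test for any drug.
IFI6: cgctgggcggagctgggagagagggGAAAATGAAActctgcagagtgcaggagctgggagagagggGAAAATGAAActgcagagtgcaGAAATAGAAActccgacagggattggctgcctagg
TAP1: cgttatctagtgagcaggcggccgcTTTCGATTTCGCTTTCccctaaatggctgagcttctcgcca
PARP14: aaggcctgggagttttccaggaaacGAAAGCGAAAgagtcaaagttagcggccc
CXCL10: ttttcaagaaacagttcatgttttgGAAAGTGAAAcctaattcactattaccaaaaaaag
IFI27: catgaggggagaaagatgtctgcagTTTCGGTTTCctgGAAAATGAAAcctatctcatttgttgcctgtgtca
IFIT3: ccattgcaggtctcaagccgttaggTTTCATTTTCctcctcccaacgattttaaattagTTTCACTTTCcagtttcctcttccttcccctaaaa
IFIT5: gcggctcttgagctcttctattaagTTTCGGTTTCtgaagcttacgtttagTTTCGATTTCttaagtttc
IFI44: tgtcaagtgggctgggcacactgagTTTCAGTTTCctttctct
ISG15: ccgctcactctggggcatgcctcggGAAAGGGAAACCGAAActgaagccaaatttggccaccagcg
IFIT1: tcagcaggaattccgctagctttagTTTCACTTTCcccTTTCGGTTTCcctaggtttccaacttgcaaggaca
These lie at chr1:27672251-27672373, minus strand (IFI6), chr6:32853798-32853863, minus strand (TAP1), chr3:122680785-122680838, plus strand (PARP14), chr4:76023684-76023743, minus strand (CXCL10), chr14:94110603-94110675, plus strand (IFI27), chr10:89327816-89327909, plus strand (IFIT3), chr10:89414498-89414567, plus strand (IFIT5), chr1:78649746-78649788, plus strand (IFI44), chr1:1013359-1013424, plus strand (ISG15) and chr10:89392482-89392554, plus strand (IFIT1). The core was present in a window of 22 of the 34 genes (64.7%), against 4.38% of all 27305 genes with a window. TTCNNNGAA, the palindromic interferon-gamma activated site, was present for 11 of the 34 genes (32.4%), against 9.38% of all genes. A match describes letters in a window and is not a measured binding site.

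Libraries held between 16774156 and 31588683 reads counted to genes, and the 46 genes took between 0.102% and 0.257% of them. Levels are given as CPM, a gene's reads per 1000000 reads counted to genes, after trimmed-mean scaling between libraries. The 2 MDA-MB231 DMSO libraries differed by more than the sampling of reads allows (chi-square per degree of freedom 21.7 over the interferon genes and 26.7 over all genes), and 3 of 35 interferon genes above 5 CPM were at least 2-fold lower in the second. These were IFI27 (16.1 and 4.94 CPM), IFITM1 (17.3 and 7.69 CPM) and UBA7 (16.1 and 7.0 CPM). Among the lines' own markers, the epithelial keratin KRT19 was between 65.3 and 182 CPM in MDA-MB231 and at most 0.344 CPM in U2OS, whereas KRT8 overlapped between the lines, at 149 to 340 CPM in MDA-MB231 and 171 to 749 CPM in U2OS. Alkaline phosphatase ALPL, an osteoblast enzyme, was between 1.81 and 12.9 CPM in U2OS and at most 0.281 CPM in MDA-MB231, while the defining osteoblast genes SP7, BGLAP and IBSP were under 1 CPM in both lines. Over all 10 osteoblast markers the summed level was between 158 and 454 CPM in MDA-MB231 and between 71.1 and 173 CPM in U2OS, with CDH11 between 98.1 and 370 CPM in MDA-MB231 and between 2.5 and 26.2 CPM in U2OS. Of 12 blood and immune cell markers, HBB and IL3RA were at 0 in both lines, CD3E was also at 0 in U2OS, and GZMB and CLEC4C were at 0 in MDA-MB231. Other markers of that list were present, with 3 reaching 1 CPM in U2OS and 4 in MDA-MB231. Summed over the list, U2OS libraries held between 15.9 and 55.8 CPM and MDA-MB231 libraries between 98.5 and 237 CPM. Most of this was CD68, at 13.8 to 50.4 CPM in U2OS and 95.6 to 222 CPM in MDA-MB231. CD14 reached 2.15 CPM in U2OS and 14.1 CPM in MDA-MB231.

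Doxorubicin changed 21 of the 46 interferon genes in the mean over both lines, 15 upward and 6 downward (45.7%). Over all genes tested it changed 42.5%, 21.9% upward and 20.6% downward, so the share of interferon genes that moved was close to that of genes in general. The interferon genes had a median log2 fold change of 0.396, against 0.0673 over all genes. With total gene counts in place of trimmed-mean scaling the doxorubicin split became 11 upward and 7 downward, beside 2453 and 4064 of all genes (3476 and 3272 before), as the median of all genes moved by -0.219. Etoposide raised 8 of the 46 and lowered 0 (all genes, 17.2% called, 7.97% upward and 9.23% downward), with a median of 0.173 against 0.0199. MMS raised 1 and lowered 2 (all genes, 10.4% called, 5.23% upward and 5.16% downward), with a median of -0.248 against -0.0424. Paclitaxel changed 0 of the 46 and 0 of all 15888 genes (0.0% called). At an unadjusted p under 0.05, paclitaxel still had 0 interferon genes against 110 of all genes, and DESeq2 and limma-voom also called 0 interferon genes. These counts depend on single libraries: without the first MDA-MB231 DMSO library doxorubicin had 13 calls, etoposide 1 and MMS 0. Etoposide also had 3 without MDA-MB231 etoposide and 2 without U2OS DMSO, and MMS had 0 without U2OS DMSO or U2OS MMS and 1 without MDA-MB231 paclitaxel, U2OS paclitaxel, the second MDA-MB231 DMSO or MDA-MB231 MMS. In all, 22 interferon genes were called for no drug, 16 for 1 drug and 8 for 2 drugs. The same split was not counted over all genes, so it is not shown to be particular to the interferon genes. A call here is an adjusted p under 0.05 in edgeR's quasi-likelihood test over all genes, in which the pair of lines stands in for replicates of a drug. All 4 drugs share the U2OS DMSO library. In MDA-MB231, doxorubicin, etoposide and paclitaxel share the first DMSO library, while MMS is set against the second. Their values thus stand side by side and are not independent of one another, and MMS differs from the other drugs in its MDA-MB231 reference. Nothing in the labels says whether the libraries came from separate cultures, so p-values measure only the spread between these libraries.

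**Figure D1:**
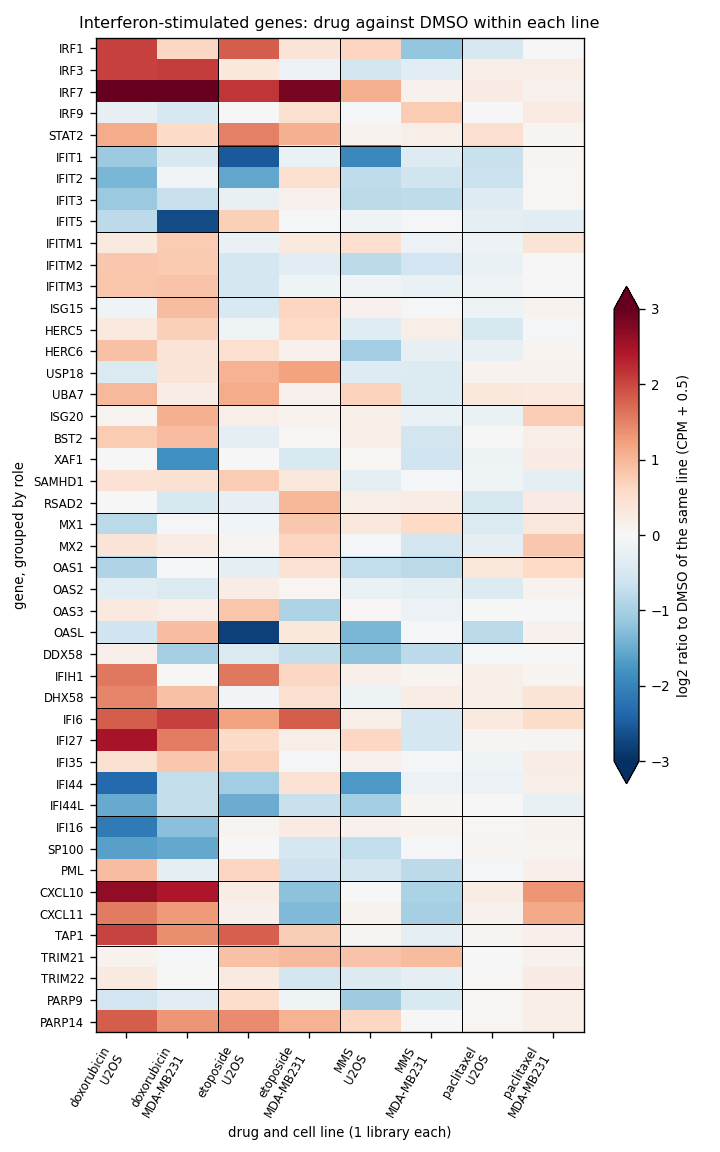
Log2 ratio of each drug library to the DMSO library of its own line for the 46 genes (rows, grouped by role) in the 8 pairs of drug and line (columns). Colour runs from blue (lower than DMSO) to red (higher), with values past 3 drawn at the end colour. IRF7 and IFI6 are red in all 4 doxorubicin and etoposide columns, IFIT1 and OASL are blue in the U2OS etoposide column, and the paclitaxel columns are pale apart from CXCL10 and CXCL11 in MDA-MB231.

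Among the transcription factors, IRF7, IRF3 and STAT2 rose with doxorubicin, and IRF7 and STAT2 rose with etoposide. IRF7 amplifies interferon production in virus-infected cells. In U2OS its level was 0.358 CPM in DMSO, 0.516 in paclitaxel, 1.29 in MMS, 3.3 in etoposide and 7.13 in doxorubicin. In MDA-MB231 the level was 11.7 and 13.6 CPM in DMSO, 12.9 in paclitaxel, 14.9 in MMS, 87.6 in etoposide and 152 in doxorubicin. Both lines were highest with doxorubicin and next with etoposide, although the U2OS DMSO value rests on 7 reads. The log2 fold change was 3.62 ± 0.33 with doxorubicin (SE, n = 2 libraries, edgeR adjusted p = 0.000211) and 2.68 ± 0.33 with etoposide (edgeR adjusted p = 0.00436). Without the first MDA-MB231 DMSO library the etoposide value was 2.45 and no longer passed.

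IRF3, the factor that sensing kinases activate, rose with doxorubicin and passed for no other drug. U2OS held 31.1 CPM in DMSO, 35.4 in paclitaxel, 21.1 in MMS, 38.7 in etoposide and 129.96 in doxorubicin. The MDA-MB231 libraries held 56.8 and 54.4 CPM in DMSO, 65 in paclitaxel, 43.5 in MMS, 50.01 in etoposide and 244 in doxorubicin. The doxorubicin library stood about as far above DMSO in one line as in the other, and the log2 fold change was 2.12 ± 0.18 (edgeR adjusted p = 0.000164). IRF3 shares 482 exon bases with BCL2L12 on the opposite strand, and with doxorubicin BCL2L12 also went up, in U2OS from 24.9 to 57.4 CPM and in MDA-MB231 from 41.3 to 104 CPM. The strand setting of the counting is not stated in the labels or notes. Reads marked ambiguous were left out of the gene counts, so whether reads from the shared bases entered the IRF3 count is not known.

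STAT2, which acts with IRF9 at the ISRE, was highest with etoposide in both lines. Its levels in U2OS were 47.7 CPM in DMSO, 66.9 in paclitaxel, 51.3 in MMS, 137 in etoposide and 105 in doxorubicin. Those in MDA-MB231 were 54.4 and 36.3 CPM in DMSO, 57.4 in paclitaxel, 40.8 in MMS, 115 in etoposide and 80.7 in doxorubicin. The log2 fold change was 0.88 ± 0.17 with doxorubicin (edgeR adjusted p = 0.00385) and 1.33 ± 0.17 with etoposide (edgeR adjusted p = 0.00508). IRF9 itself did not pass for any drug: U2OS stayed between 13.1 and 15.7 CPM, and MDA-MB231 ranged from 9.0 to 24.1 CPM, with its 2 DMSO libraries at 17.1 and 9.0 CPM.

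IRF1, a factor that interferon-gamma induces, also passed for no drug in the mean over lines. It was nevertheless 4.17-fold higher with doxorubicin and 3.52-fold higher with etoposide in U2OS, where its level was 13.1 CPM in DMSO, 9.28 in paclitaxel, 20.7 in MMS, 47.3 in etoposide and 56 in doxorubicin. In MDA-MB231 the level was 35.7 and 42.4 CPM in DMSO, 35.4 in paclitaxel, 18.8 in MMS, 46.7 in etoposide and 55.2 in doxorubicin, and its MMS library was the lowest of the 6. The fitted log2 fold change was 1.13 ± 0.51 with doxorubicin (edgeR adjusted p = 0.102) and 0.89 ± 0.51 with etoposide (edgeR adjusted p = 0.251), neither of which passed. IRF1 shares 580 exon bases with C5orf56 on the opposite strand, which was at most 3.13 CPM in any library.

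**Figure D2:**
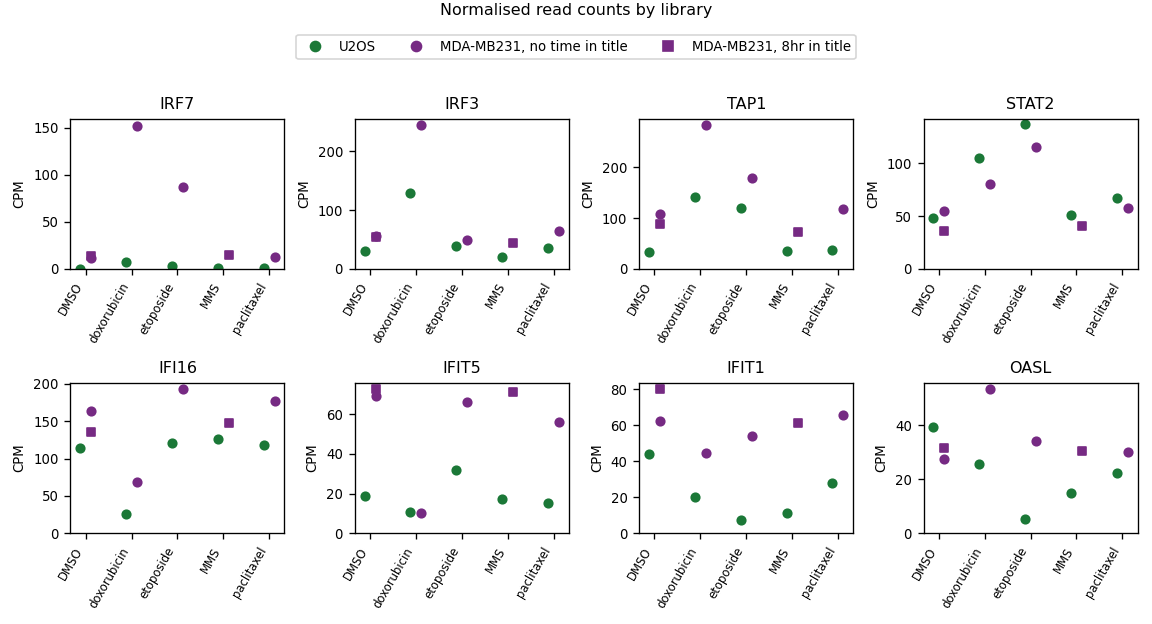
Level (CPM, linear axis from 0) of 8 genes in each of the 11 libraries, by drug along the horizontal axis; green points are U2OS, purple circles MDA-MB231 libraries without a time in the title and purple squares the 2 with one. IRF3 stands high in the doxorubicin libraries alone, STAT2 is highest with etoposide, IFI16 and IFIT5 are lowest with doxorubicin, and IFIT1 and OASL are low with etoposide and MMS in U2OS.

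The IFIT proteins bind foreign RNA and block its translation. IFIT3 and IFIT5 fell with doxorubicin, and IFIT3 also fell with MMS, while IFIT1 and IFIT2 passed for no drug. IFIT3 levels in U2OS were 23.5 CPM in DMSO, 17.8 in paclitaxel, 13.1 in MMS, 20.1 in etoposide and 10.5 in doxorubicin. In MDA-MB231 they were 128 and 149 CPM in DMSO, 133 in paclitaxel, 87.5 in MMS, 139 in etoposide and 80.6 in doxorubicin. Both lines had their lowest IFIT3 level with doxorubicin, with log2 fold changes of -0.92 ± 0.17 for doxorubicin (edgeR adjusted p = 0.00295) and -0.73 ± 0.16 for MMS (edgeR adjusted p = 0.0288). The MMS call was lost in 8 of 19 alternatives, 7 of which left out 1 library each.

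IFIT5 was 19 CPM in DMSO, 15.4 in paclitaxel, 17.3 in MMS, 31.7 in etoposide and 10.8 in doxorubicin in U2OS. Levels of the gene in MDA-MB231 were 69.2 and 72.6 CPM in DMSO, 55.9 in paclitaxel, 71.3 in MMS, 66.1 in etoposide and 10.4 in doxorubicin. With doxorubicin both lines came to a similar low level, from DMSO levels that differed between them. The log2 fold change was -1.64 ± 0.41 (edgeR adjusted p = 0.0125), and 0.36 with etoposide, which did not pass. The doxorubicin call was lost without the first MDA-MB231 DMSO library (-1.23).

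IFIT1 binds RNA whose cap marks it as foreign. Its level in U2OS was 43.9 CPM in DMSO, 27.6 in paclitaxel, 11 in MMS, 7.19 in etoposide and 20.3 in doxorubicin. MDA-MB231 held 62.3 and 79.7 CPM in DMSO, 65.7 in paclitaxel, 61.1 in MMS, 53.8 in etoposide and 44.4 in doxorubicin. All 4 U2OS drug libraries lay below their DMSO library, and in MDA-MB231 the drug libraries lay between 44.4 and 65.7 CPM beside DMSO libraries at 62.3 and 79.7 CPM. IFIT2 likewise went from 38.9 CPM in U2OS DMSO to 14.7 CPM with doxorubicin and 12.9 CPM with etoposide, beside 60.9 and 90 CPM in MDA-MB231 with DMSO libraries at 64.8 and 86.5 CPM.

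The IFITM proteins stop viruses from fusing with the cell membrane. IFITM2 and IFITM3 rose with doxorubicin, by 0.85 ± 0.19 and 0.82 ± 0.15 on the log2 scale (edgeR adjusted p = 0.00761 and adjusted p = 0.00318). The IFITM2 call was lost without the first MDA-MB231 DMSO library (0.83). For IFITM3, U2OS went from 49.3 to 87.9 CPM and MDA-MB231 from 123 to 222 CPM. The 2 genes are near copies of each other, so how reads were split between them is uncertain. IFITM1 did not pass: MDA-MB231 had 29.6 CPM with doxorubicin beside DMSO libraries at 17.3 and 7.69 CPM.

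ISG15, a ubiquitin-like protein that is joined to other proteins, passed for no drug. Its U2OS levels were 84.4 CPM in DMSO, 75.4 in paclitaxel, 92 in MMS, 61.2 in etoposide and 76.6 in doxorubicin. MDA-MB231 gave 67.9 and 69.2 CPM in DMSO, 72.5 in paclitaxel, 65.9 in MMS, 106 in etoposide and 129 in doxorubicin. Doxorubicin and etoposide libraries were the 2 highest in MDA-MB231, yet the same drugs were below DMSO in U2OS, and the log2 fold change with doxorubicin was 0.32 ± 0.28 (edgeR adjusted p = 0.376).

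Of the enzymes that attach and remove ISG15, the protease USP18 rose with etoposide and the ligase relative HERC6 with doxorubicin, while the ligase HERC5 and the activating enzyme UBA7 passed for no drug. USP18 was low throughout: U2OS had 0.563 CPM in DMSO, 0.645 in paclitaxel, 0.312 in MMS, 1.68 in etoposide and 0.293 in doxorubicin. The MDA-MB231 libraries gave 0.984 and 1.5 CPM in DMSO, 1.09 in paclitaxel, 1.0 in MMS, 2.93 in etoposide and 1.45 in doxorubicin. The etoposide library was the highest of each line (log2 fold change 1.6 ± 0.47, edgeR adjusted p = 0.0466). That call was lost in 13 of 18 alternatives, the HERC6 call (log2 fold change 0.79 ± 0.28) in 15 of 19.

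The MX GTPases trap viral particles, and the OAS enzymes make a second messenger when they bind double-stranded RNA. None of these 6 genes was called for any drug. MX1 in U2OS was 2.25 CPM in DMSO, 1.55 in paclitaxel, 2.96 in MMS, 2.08 in etoposide and 1.07 in doxorubicin. In MDA-MB231 it was 11.2 and 13.7 CPM in DMSO, 14.3 in paclitaxel, 21 in MMS, 19.8 in etoposide and 10.9 in doxorubicin. The values with DMSO lay inside the range of the drug libraries in both lines. OAS1 was 6.96 CPM in DMSO, 8.98 in paclitaxel, 3.98 in MMS, 5.6 in etoposide and 3.52 in doxorubicin in U2OS. Its MDA-MB231 levels were 0.866 and 1.00 CPM in DMSO, 1.55 in paclitaxel, 0.361 in MMS, 1.35 in etoposide and 0.842 in doxorubicin. With MMS both lines lay below DMSO, at a log2 fold change of -0.85 ± 0.4 that did not pass (edgeR adjusted p = 0.193). MX2 and OAS2 had at most 6 and 30 reads in any U2OS library.

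OASL, a relative of the OAS enzymes that lacks their activity and binds RIG-I, showed the lowest ratio of any member above 5 CPM in U2OS with etoposide. Its level there was 39.3 CPM in DMSO, 22.3 in paclitaxel, 14.9 in MMS, 5.24 in etoposide and 25.7 in doxorubicin. The MDA-MB231 level was 27.7 and 31.4 CPM in DMSO, 30.1 in paclitaxel, 30.6 in MMS, 34.4 in etoposide and 53.3 in doxorubicin. In U2OS etoposide OASL was at 0.144 of DMSO, while the MDA-MB231 etoposide library was 1.24-fold higher than DMSO. The mean over lines did not pass (log2 fold change -1.08 ± 0.61, edgeR adjusted p = 0.248).

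RIG-I (DDX58), MDA5 (IFIH1) and LGP2 (DHX58) sense viral RNA in the cytosol. DDX58 fell with MMS: U2OS levels were 34.7 CPM in DMSO, 33.9 in paclitaxel, 14.7 in MMS, 25.5 in etoposide and 38.8 in doxorubicin. Levels in MDA-MB231 were 137 and 146 CPM in DMSO, 138 in paclitaxel, 84.8 in MMS, 83.3 in etoposide and 67.9 in doxorubicin. MMS was the lowest U2OS library, while in MDA-MB231 the doxorubicin, etoposide and MMS libraries all lay under both DMSO libraries. The MMS log2 fold change was -1.12 ± 0.29 (edgeR adjusted p = 0.0439). It was lost in 11 of 19 alternatives and was -0.78 without the U2OS MMS library. DHX58 rose with doxorubicin (1.61 ± 0.45, edgeR adjusted p = 0.0183), a call lost without U2OS doxorubicin (value 0.95), U2OS DMSO (1.65) or the first MDA-MB231 DMSO library (1.75). U2OS went from 0.666 to 2.73 CPM of it and MDA-MB231 from 3.89 to 7.57 CPM. IFIH1 in U2OS was about 19 CPM with doxorubicin and 19.1 CPM with etoposide, against 5.99 CPM with DMSO. In MDA-MB231 it was 12.7 and 19.5 CPM with these drugs against 12.4 CPM, and it passed for neither.

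Members of the IFI group have no common biochemistry and share only their induction. IFI6, a small membrane protein that limits apoptosis and virus replication, rose with doxorubicin and etoposide. U2OS libraries gave 8.14 CPM in DMSO, 10.1 in paclitaxel, 9.44 in MMS, 19.5 in etoposide and 29.8 in doxorubicin. The MDA-MB231 values were 7.28 and 12.2 CPM in DMSO, 10.8 in paclitaxel, 8.51 in MMS, 26.7 in etoposide and 31.7 in doxorubicin. In each line the doxorubicin and etoposide libraries were the 2 highest. Log2 fold changes were 1.86 ± 0.28 with doxorubicin (edgeR adjusted p = 0.00113) and 1.45 ± 0.28 with etoposide (edgeR adjusted p = 0.0131). The etoposide call was lost without the first MDA-MB231 DMSO (value 1.19), MDA-MB231 etoposide (1.19) or U2OS DMSO library (1.44).

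IFI27, a mitochondrial protein much used in interferon signatures, rose with doxorubicin (2.43 ± 0.64, edgeR adjusted p = 0.0148). It was 0.0512 CPM in DMSO, 0.086 in paclitaxel, 0.351 in MMS, 0.324 in etoposide and 2.54 in doxorubicin in U2OS. For MDA-MB231 the values were 16.1 and 4.94 CPM in DMSO, 17.2 in paclitaxel, 3.29 in MMS, 18.3 in etoposide and 47.5 in doxorubicin. The 2.54 CPM of U2OS with doxorubicin are 52 reads against 1 read with DMSO, so the size of that fold is not well determined. In MDA-MB231 the doxorubicin library was the highest of 6, but the 2 DMSO libraries were far apart. The call was lost without the first MDA-MB231 DMSO library (2.98) and without U2OS doxorubicin (1.60).

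IFI44 fell with doxorubicin (-1.45 ± 0.44, edgeR adjusted p = 0.0274). Its U2OS levels were 42 CPM in DMSO, 37.4 in paclitaxel, 12.4 in MMS, 20.1 in etoposide and 7.91 in doxorubicin. Those of MDA-MB231 were 25.3 and 20.2 CPM in DMSO, 28.7 in paclitaxel, 17.7 in MMS, 34.1 in etoposide and 15.1 in doxorubicin. All 4 U2OS drug libraries were below DMSO, while in MDA-MB231 the etoposide library was the highest of 6. The value was -0.86 without U2OS DMSO and -0.91 without U2OS doxorubicin, and passed in neither case. IFI35 and IFI44L passed for no drug.

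IFI16, which binds DNA in the nucleus, and SP100, a structural protein of nuclear bodies, both fell with doxorubicin. U2OS held 115 CPM in DMSO, 118 in paclitaxel, 126 in MMS, 122 in etoposide and 26.1 in doxorubicin of IFI16. MDA-MB231 held 164 and 136 CPM in DMSO, 178 in paclitaxel, 147 in MMS, 193 in etoposide and 68 in doxorubicin of the same gene. The doxorubicin library was the lowest of each line, with log2 fold changes of -1.69 ± 0.21 for IFI16 (edgeR adjusted p = 0.000606) and -1.5 ± 0.23 for SP100 (edgeR adjusted p = 0.00133). SP100 was 50.6 CPM in DMSO, 53.6 in paclitaxel, 30.02 in MMS, 50.6 in etoposide and 16.1 in doxorubicin in U2OS. Its values in MDA-MB231 were 71.3 and 82.2 CPM in DMSO, 75.8 in paclitaxel, 80.8 in MMS, 50.2 in etoposide and 24.1 in doxorubicin. PML, which gives these bodies their name, passed for no drug: with doxorubicin it was 63.5 CPM against 33.1 CPM in U2OS and 60 CPM against 72.6 CPM in MDA-MB231.

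The chemokines CXCL10 and CXCL11 attract T cells through CXCR3. Both rose with doxorubicin, from few reads. CXCL10 had 0 reads in U2OS with DMSO and 55 with doxorubicin, at least 17.5-fold higher against a floor of 3 reads, and CXCL11 had 0 and 20 reads, at least 6.36-fold higher. CXCL10 in U2OS was 0 CPM in DMSO, 0.086 in paclitaxel, 0 in MMS, 0.0811 in etoposide and 2.69 in doxorubicin. In MDA-MB231 CXCL10 was 2.2 and 1.56 CPM in DMSO, 6.23 in paclitaxel, 0.562 in MMS, 0.644 in etoposide and 14 in doxorubicin. The doxorubicin library was the highest of each line and the paclitaxel library the next in MDA-MB231. CXCL11 in U2OS was 0 CPM in DMSO, 0.043 in paclitaxel, 0.039 in MMS, 0.0541 in etoposide and 0.976 in doxorubicin. The corresponding MDA-MB231 values were 3.46 and 2.5 CPM in DMSO, 8.28 in paclitaxel, 1.0 in MMS, 1.09 in etoposide and 9.16 in doxorubicin. The fitted log2 fold changes, 3.91 ± 0.87 for CXCL10 (edgeR adjusted p = 0.00684) and 2.42 ± 0.81 for CXCL11 (edgeR adjusted p = 0.039), depend on the prior count because U2OS DMSO is at 0, and the CXCL11 call was lost in 10 of 18 alternatives.

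TAP1 carries peptides into the endoplasmic reticulum for display on MHC class I. It rose with doxorubicin and etoposide. U2OS levels of TAP1 were 34.4 CPM in DMSO, 36.6 in paclitaxel, 36.2 in MMS, 119.7 in etoposide and 141 in doxorubicin. Levels of TAP1 in MDA-MB231 were 107 and 88.3 CPM in DMSO, 119 in paclitaxel, 73.4 in MMS, 179 in etoposide and 283 in doxorubicin. The 2 drugs stood above every other library of their line, with log2 fold changes of 1.69 ± 0.25 for doxorubicin (edgeR adjusted p = 0.00109) and 1.27 ± 0.25 for etoposide (edgeR adjusted p = 0.0141). The etoposide value was 0.80 without the U2OS etoposide library, 1.07 without U2OS DMSO and 1.48 without the first MDA-MB231 DMSO library, and passed in none of these.

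PARP14, an ADP-ribosyltransferase that modifies signalling proteins, likewise rose with both drugs. It was 43.3 CPM in DMSO, 45 in paclitaxel, 66.9 in MMS, 116 in etoposide and 154 in doxorubicin in U2OS. PARP14 in MDA-MB231 was 48.3 and 58.1 CPM in DMSO, 55.2 in paclitaxel, 58.2 in MMS, 100.3 in etoposide and 121 in doxorubicin. Its log2 fold changes were 1.51 ± 0.2 (edgeR adjusted p = 0.000768) and 1.16 ± 0.2 (edgeR adjusted p = 0.0103). The etoposide call was lost without the first MDA-MB231 DMSO (1.19), MDA-MB231 etoposide (1.25) or U2OS DMSO library (1.00). PARP9, another member of that enzyme family, passed for no drug and shares 217 exon bases with DTX3L on the opposite strand. TRIM21, the cytosolic antibody receptor, rose with etoposide and with MMS but not with doxorubicin. U2OS TRIM21 levels were 23.1 CPM in DMSO, 23.1 in paclitaxel, 41.9 in MMS, 42.6 in etoposide and 24.9 in doxorubicin. In MDA-MB231 TRIM21 was 14.7 and 20.2 CPM in DMSO, 16.1 in paclitaxel, 39.5 in MMS, 29.5 in etoposide and 14.4 in doxorubicin. The etoposide and MMS libraries were the 2 highest of each line, at log2 fold changes of 0.96 ± 0.19 (edgeR adjusted p = 0.0139) and 0.91 ± 0.18 (edgeR adjusted p = 0.0209). The etoposide call was lost without the first MDA-MB231 DMSO, MDA-MB231 etoposide or U2OS DMSO library, and the MMS call without any 1 of the 3 DMSO or 2 MMS libraries.

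Of the other antiviral effectors, BST2 and SAMHD1 rose and XAF1 fell. The membrane tether BST2 rose with doxorubicin (0.73 ± 0.2, edgeR adjusted p = 0.0178): U2OS moved from 58.3 to 98.7 CPM and MDA-MB231 from 171 to 327 CPM. That call was lost in 6 of 19 alternatives, among them total gene counts and leaving out the U2OS DMSO, U2OS doxorubicin, MDA-MB231 doxorubicin or first MDA-MB231 DMSO library (0.53 to 0.83). The nucleotide hydrolase SAMHD1 rose by 0.49 ± 0.17 with doxorubicin and by 0.6 ± 0.17 with etoposide on the log2 scale, calls that were lost in 12 of 19 and 11 of 19 alternatives. XAF1, which binds the apoptosis inhibitor XIAP, fell with doxorubicin (-2.25 ± 0.76, edgeR adjusted p = 0.0395). Its level was measurable in MDA-MB231, at 4.17 and 3.81 CPM in DMSO, 5.04 in paclitaxel, 2.37 in MMS, 2.9 in etoposide and 0.795 in doxorubicin. All 5 U2OS libraries had at most 2 reads of it, and without the MDA-MB231 doxorubicin library the value was -0.30, and the call was lost in 8 of 18 alternatives. The exonuclease ISG20, the radical enzyme RSAD2 and TRIM22 passed for no drug.

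**Figure D3:**
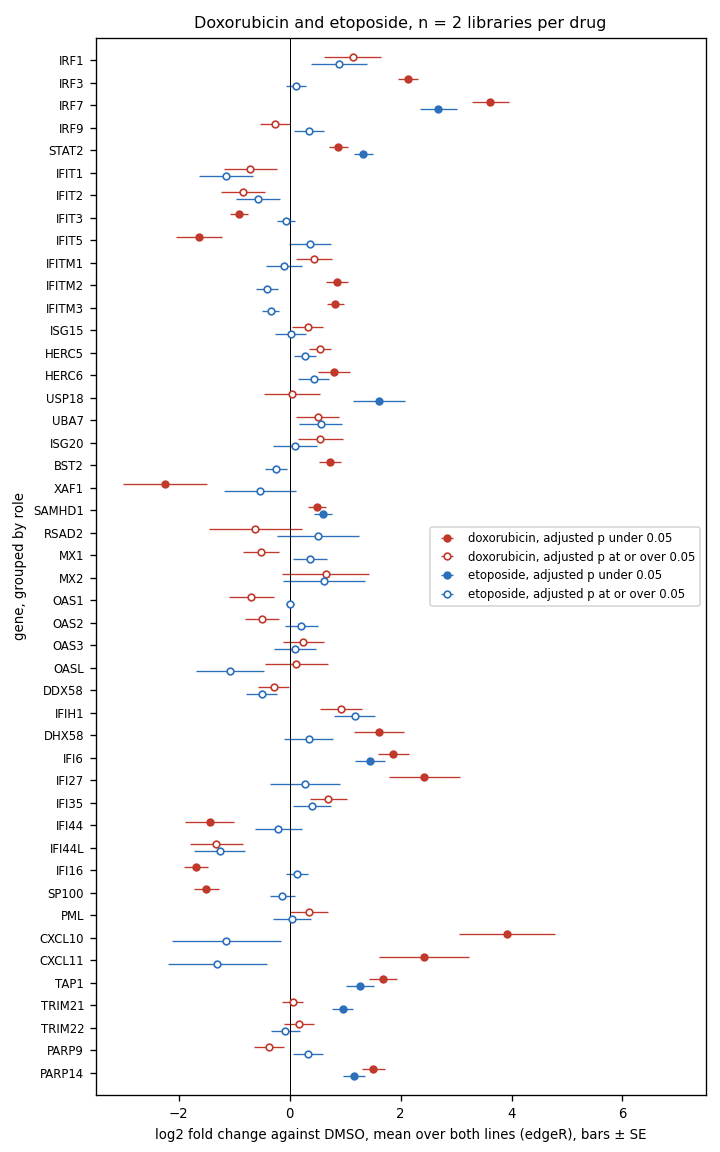
Log2 fold change against DMSO in the mean over both lines for doxorubicin (red) and etoposide (blue), 1 row per gene, grouped by role; bars are ± SE from edgeR (n = 2 libraries per drug) and filled points have an adjusted p under 0.05. IRF7, STAT2, IFI6, TAP1 and PARP14 have filled points to the right for both drugs, while IRF3 and CXCL10 are far right and IFI16, SP100 and IFIT5 far left for doxorubicin alone.

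Doxorubicin and etoposide share a target enzyme, and the contrast between them needs no DMSO library. It called 17 of the 46 genes, 9 higher and 8 lower with doxorubicin (37.0%), against 46.4% of all genes. Higher with doxorubicin were CXCL10 (5.06 ± 0.98, edgeR adjusted p = 0.00304), CXCL11 (3.72 ± 0.91), IFI27 (2.15 ± 0.65), IRF3 (2.01 ± 0.19, edgeR adjusted p = 0.000163), DHX58, IFITM2, IFITM3, BST2 and IRF7, the last 5 by between 0.94 and 1.27 on the log2 scale. Lower with doxorubicin were IFIT5 (-2.00 ± 0.43, edgeR adjusted p = 0.00485), IFI16 (-1.83 ± 0.22, edgeR adjusted p = 0.000334), USP18 (-1.56 ± 0.49), SP100 (-1.37 ± 0.24), IFI44, TRIM21, MX1 and IFIT3. Several of these calls were not stable: DHX58 and MX1 were each lost in 14 of 19 alternatives, IRF7 and IFI44 in 6 of 19, IFI27 in 5 of 19, USP18 in 5 of 18 and CXCL10 and CXCL11 in 2 of 18. Without the U2OS doxorubicin library the difference was 0.62 for DHX58, -0.67 for MX1, -0.78 for IFI44, -0.96 for USP18 and 1.29 for IFI27, and it was -0.82 for IFI44 without MDA-MB231 etoposide and 0.85 for DHX58 without U2OS etoposide. CXCL10 and CXCL11 no longer passed without MDA-MB231 etoposide (4.25 and 3.20), nor did IRF7 without any 1 of the 4 doxorubicin and etoposide libraries (0.78 to 1.11). For STAT2, TAP1, PARP14 and IFI6, whose values with both drugs are given above, the difference did not pass: it was -0.45 ± 0.18, 0.42 ± 0.26, 0.35 ± 0.21 and 0.41 ± 0.28. A difference that does not pass does not show that the drugs acted alike. Scaling by total gene counts in place of trimmed means shifted the median of all genes by -0.348 in this contrast. The split of the interferon genes became 7 higher and 12 lower, beside 2404 higher and 4969 lower of all genes (3831 and 3536 before).

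Within each line the comparison rests on 1 library per drug, so there is no test. Over the interferon genes with at least 5 CPM in the larger library, doxorubicin was at least 2-fold above DMSO for 9 of 39 and below for 4 of 39 in MDA-MB231 (23.1% and 10.3%, against 8.19% and 18.8% of all genes). In U2OS it was above for 8 and below for 6 of 32 genes (all genes, 14.3% and 18.3%). Etoposide was above for 4 and below for 0 of 36 in MDA-MB231 (all genes, 8.62% and 11.2%), and above for 6 and below for 4 of 31 in U2OS (all genes, 6.1% and 7.5%). The 4 lower ones in U2OS were OASL, IFIT1, IFIT2 and IFI44. MMS was above for 0 and below for 6 of 31 in U2OS (19.4% below, against 7.32% above and 11.2% below for all genes), namely IFIT1, IFI44, OASL, DDX58, PARP9 and HERC6, and above for 0 and below for 1 of 34 in MDA-MB231, IRF1 (2.94% below, against 2.71% above and 3.4% below for all genes). Paclitaxel was above for 2 of 41 in MDA-MB231, CXCL10 (2.49-fold) and CXCL11 (2.22-fold), and below for 0 (all genes, 0.462% above and 0.00923% below). In U2OS paclitaxel was above and below for 0 of 31 (all genes, 0.0799% and 0.00888%).

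Where both lines had at least 5 CPM in the larger library, 25 of 30 interferon genes moved in the same direction in U2OS and MDA-MB231 with doxorubicin (83.3%, against 83.6% of all genes). With etoposide 14 of 28 did (50%, against 79.0%), with MMS 20 of 28 (71.4%, against 76.4%) and with paclitaxel 15 of 30 (50%, against 62.9%). A term for treated U2OS libraries, which asks whether the mean response to the 4 drugs differed between lines, was called for 0 of 46 interferon genes and 0 of 15888 genes (0.0%) in edgeR. At an unadjusted p under 0.05 it had 3 of the 46 and 204 of all genes, and DESeq2 and limma-voom called 0 of the 46. The 3 were OASL (-1.69 ± 0.65), IFIT1 (-1.37 ± 0.55) and IFI44 (-1.31 ± 0.48), all lower in treated U2OS than in treated MDA-MB231 relative to DMSO, and all 3 share the single U2OS DMSO library as their reference.

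The level of most of these genes differed between the lines. Over all libraries 31 of the 46 were lower and 6 higher in U2OS than in MDA-MB231 (80.4%), against 61.0% of all genes called, 27.9% lower and 33.1% higher. The median log2 difference, U2OS minus MDA-MB231, was -1.3 for the interferon genes and 0.0725 for all genes. Among genes reaching 5 CPM, the ranges of the lines did not overlap for 21 of 42 interferon genes, 19 of them lower and 2 higher in U2OS (45.2% and 4.76%, against 10.4% and 12.8% of all genes). The comparison is of these 2 lines, and line cannot be told apart from tissue or any other difference between them.

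OAS2 differed most: its U2OS levels were 0.615 CPM in DMSO, 0.344 in paclitaxel, 0.468 in MMS, 0.811 in etoposide and 0.391 in doxorubicin. Its MDA-MB231 levels were 41.2 and 30.8 CPM in DMSO, 44.7 in paclitaxel, 25.5 in MMS, 42.7 in etoposide and 30.2 in doxorubicin. Every U2OS library lay under every MDA-MB231 library, at a log2 difference of -5.96 ± 0.23 (edgeR adjusted p = 1.92e-07). XAF1 (-5.72 ± 0.52, edgeR adjusted p = 1.96e-05), IFI27 (-4.71 ± 0.48, edgeR adjusted p = 3.94e-05) and CXCL11 (-4.67 ± 0.64, edgeR adjusted p = 0.000244) followed, with values that depend on the prior count because U2OS had few reads of them. In the other direction stood TRIM22, a restriction factor of retroviruses, with U2OS levels of 55.7 CPM in DMSO, 57.1 in paclitaxel, 41.6 in MMS, 67.5 in etoposide and 67.3 in doxorubicin. The MDA-MB231 levels were 4.64 and 2.12 CPM in DMSO, 5.64 in paclitaxel, 1.65 in MMS, 3.03 in etoposide and 4.63 in doxorubicin. Its log2 difference was 4.27 ± 0.21 (edgeR adjusted p = 6.37e-07), and OAS1 (2.69 ± 0.27, edgeR adjusted p = 3.82e-05), IFI44L (1.63 ± 0.32, edgeR adjusted p = 0.00191) and PARP9 (0.92 ± 0.19, edgeR adjusted p = 0.00233) were also higher in U2OS. Within the OAS family OAS1 and OAS2 thus lay in opposite directions, and OASL did not pass (-0.75 ± 0.38). ISG15, IFI44, PARP14 and IRF9 had differences of -0.02, -0.02, -0.01 and 0.03, none of which passed. The OAS3, STAT2, TRIM21 and PML calls were lost in 14, 12, 7 and 6 of 18 alternatives, and the other 33 were kept in every alternative in which the gene was tested (17 for CXCL10, CXCL11, USP18, XAF1 and RSAD2, 18 for the rest).

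**Figure D4:**
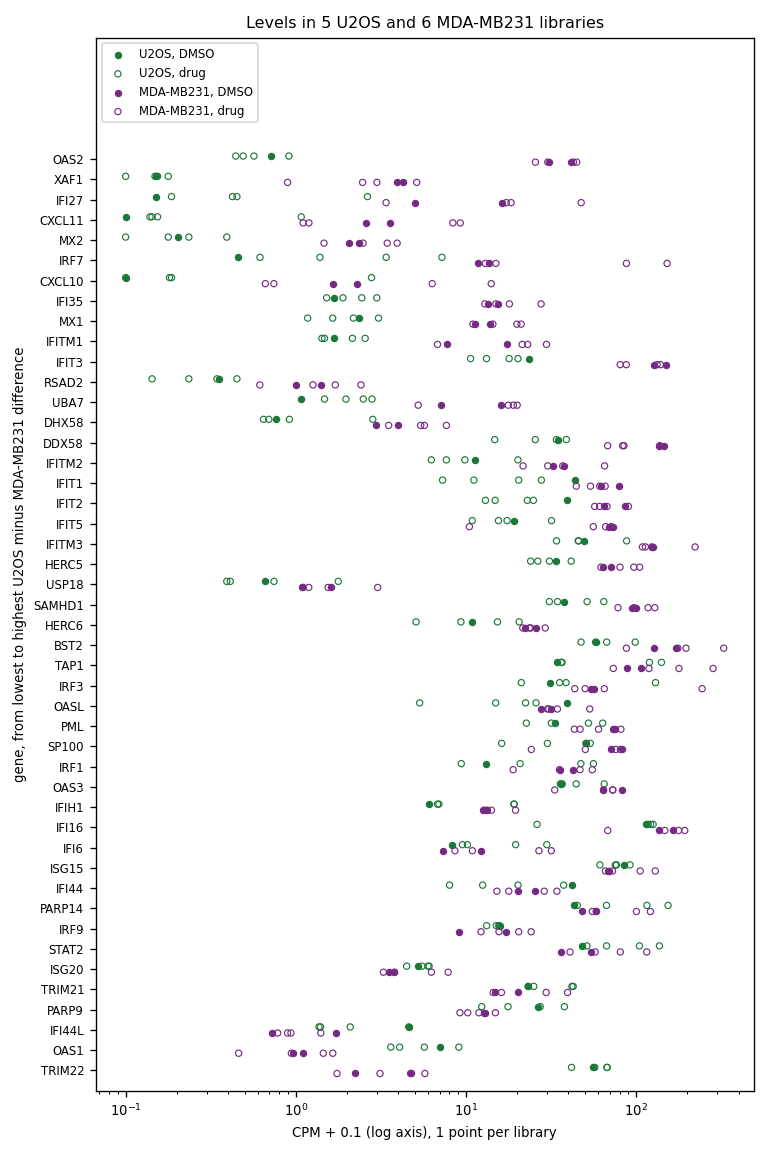
Level of the 46 genes in every library (CPM + 0.1, log axis), with genes ordered from the lowest (top) to the highest difference of U2OS minus MDA-MB231; green points are the 5 U2OS and purple points the 6 MDA-MB231 libraries, filled for DMSO. The green and purple ranges are apart for OAS2 at the top and for OAS1 and TRIM22 at the bottom, and overlap for ISG15, PARP14 and IRF9.

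Genes around the pathway were described from lists of its other parts. Of 10 interferon genes proper in the files, none passed the filter: the highest count was 17 reads of IFNE (U2OS, paclitaxel), IFNB1 reached 6 reads (U2OS, MMS), and IFNG and IFNA2 had 0 reads in every library, which allows up to 3 reads in each. Of 15 antigen presentation genes other than TAP1, 13 rose and 0 fell with doxorubicin, with a median log2 fold change of 1.1 (all genes, 21.9% upward and 20.6% downward). Among the largest were HLA-E (1.63 ± 0.21), HLA-B (1.53 ± 0.15) and the proteasome activator subunit PSME2 (1.39 ± 0.16). U2OS went from 85.3 to 345 CPM of HLA-E, MDA-MB231 from 357 to 971 CPM. Etoposide raised 3 of the 15 (20.0%, against 7.97% of all genes), among them HLA-E (0.89 ± 0.21) and B2M (0.48 ± 0.14). MMS changed 0 of the 15 in edgeR (all genes, 10.4% called). At an unadjusted p under 0.05 MMS had 3 of the 15, beside 4626 of all 15888 genes. Of 5 blood and immune markers tested, 2 also rose with doxorubicin (40.0%, against 21.9% of all genes), ITGAM (5.6 ± 1.08, at most 2.76 CPM) and CD68 (1.09 ± 0.18). So did 2 of 7 osteoblast, 2 of 6 other stromal and 2 of 10 epithelial markers tested (28.6%, 33.3% and 20.0%). ITGAM rose with etoposide too (4.28 ± 1.1). The part of these markers in the results was not tested.

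Of 16 adaptors and kinases of nucleic acid sensing, 0 rose and 5 fell with doxorubicin (31.2% lower, against 20.6% of all genes). These were the adaptor TICAM1 (-3.5 ± 0.26), the receptor TLR3 (-2.21 ± 0.68), the kinase TBK1 (-1.89 ± 0.2), the ligase TRAF6 (-1.57 ± 0.23) and the mitochondrial adaptor MAVS (-0.68 ± 0.17). TBK1, which phosphorylates IRF3, dropped in U2OS from 65.1 to 19.3 CPM, in MDA-MB231 from 50.2 to 12.1 CPM. Etoposide changed 0 of the 16 in edgeR (all genes, 17.2% called). At an unadjusted p under 0.05 it had 7 of the 16, beside 5354 of all 15888 genes. MMS raised the DNA sensor MB21D1 (0.85 ± 0.19) and TANK (0.86 ± 0.2) and lowered IKBKE (-1.56 ± 0.37) and the adaptor TMEM173 (-0.78 ± 0.2). These are 12.5% of the 16 in either direction, against 5.23% upward and 5.16% downward of all genes.

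Beside the same 21.9% upward and 20.6% downward of all genes, 5 of 10 receptors and kinases rose and 1 fell with doxorubicin: IFNGR1 (0.92 ± 0.16), IFNGR2 (0.78 ± 0.18), JAK1 and TYK2 were among those that rose, and IL28RA, the interferon-lambda receptor chain, fell (-3.53 ± 0.54). With etoposide 2 of the 10 rose and 0 fell (all genes, 7.97% upward and 9.23% downward), among them TYK2 (0.51 ± 0.14). With MMS 0 rose and 1 fell (all genes, 5.23% upward and 5.16% downward), IFNGR2 (-0.81 ± 0.19). Of 12 feedback inhibitors, 2 rose and 2 fell with doxorubicin (16.7% each, under the shares of all genes): TNFAIP3 (1.1 ± 0.25) and PTPN6 (3.16 ± 0.88, at most 4.77 CPM) rose, and PTPN2 (-0.97 ± 0.21) and PIAS3 (-0.82 ± 0.2) fell. The ligase RNF125, which marks RIG-I for degradation, rose with etoposide (1.88 ± 0.25) and MMS (1.27 ± 0.24), and PIAS3 fell with MMS (-0.88 ± 0.2).

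Of 40 further interferon-induced genes, a list that overlaps with the preceding one, doxorubicin raised 4 and lowered 10 (10.0% and 25%, against 21.9% and 20.6% of all genes), with a median of -0.391. Among the largest changes were LGALS9 (2.25 ± 0.7, at most 1.92 CPM), APOL2 (-1.96 ± 0.21) and BATF2 (-1.84 ± 0.59). Etoposide raised 5 and lowered 2 (all genes, 7.97% and 9.23%), among them APOL1 (1.41 ± 0.25), APOL6 (1.21 ± 0.36) and APOL2 (1.17 ± 0.19). MMS raised 0 and lowered 1 (0.0% and 2.5%, against 5.23% and 5.16% of all genes), TNFSF10 (-1.62 ± 0.35). APOL2, an apolipoprotein-like protein, thus fell with doxorubicin and rose with etoposide, each against the same DMSO libraries. Its doxorubicin minus etoposide difference was -3.13 ± 0.22 (edgeR adjusted p = 1e-04).

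**Figure D5:**
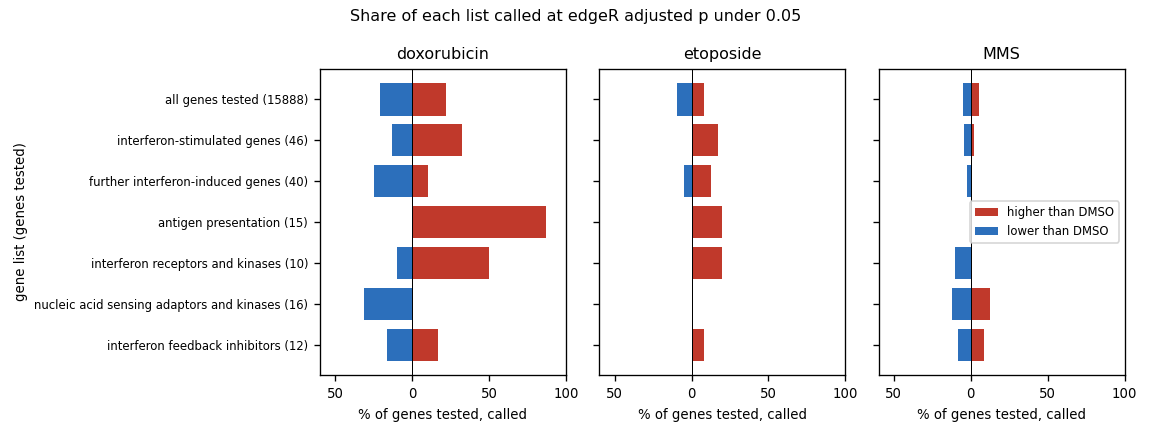
Percent of the genes tested in each list that were called higher (red, to the right) or lower (blue, to the left) than DMSO for doxorubicin, etoposide and MMS, at edgeR adjusted p under 0.05; the top bar is all 15888 genes tested. Antigen presentation has the longest red bar with doxorubicin (13 of 15), nucleic acid sensing has blue only (5 of 16), and the interferon-stimulated genes lie between.

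Set against the promoter windows above, 7 of the 22 genes with an ISRE core rose and 3 fell with doxorubicin (median log2 fold change 0.382), and of the 12 genes with a window but no core 4 rose and 3 fell (median 0.116). With etoposide 4 of 22 and 2 of 12 rose, and 0 of either fell. In the comparison of lines 3 of the 22 were higher and 13 lower in U2OS, beside 2 and 8 of the 12. These are counts without a test. Beside them, over all genes tested doxorubicin raised 21.9% and lowered 20.6%, and etoposide raised 7.97% and lowered 9.23%. Between the lines, 33.1% of all genes were higher and 27.9% lower in U2OS.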

How the data were processed

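Gene-level read counts for 11 libraries were used as the authors deposited them. Per the submitters' processing notes the tools were CASAVA 1.8.2, TopHat2 2.0.8b and HTSeq, and the builds named are hg19 and mm9; their settings, such as the strand used in counting, are not stated in those notes or the labels. The 5 summary rows that name no gene were left out. Of gene and summary counts together, multiply mapped reads made up 28.4% to 37.5% by library, and reads in no feature 7.16% to 9.7%.

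Counts were fitted in 1 model with edgeR 4.0.16 in R 4.3.3 (trimmed-mean scaling, filterByExpr, robust quasi-likelihood F test, Benjamini-Hochberg over 15888 genes, threshold 0.05), with drug terms and a block whose 3 levels are U2OS and the MDA-MB231 libraries without and with a time in the title. This left 4 residual degrees of freedom. SE is the fold change over the root of F. Ratios within a line used CPM + 0.5. DESeq2 1.42.0 and limma 3.58.1 served as alternatives. The model was also run on simulated data with less spread between libraries than these data have, which does not show how well it performs on them. Genes overlapping in exons were found in GENCODE.

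The 46 genes and the other lists were chosen with earlier results of these data known. Named by rule were 8 common markers and, per comparison, up to 4 called genes at either end; other members named were added after their values were seen. Some genes of the other lists are counted but not reported by name here. The library number pairs nothing beyond the cell line, which the block already holds.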

Additional observations from a re-analysis of the deposited data

How the results depend on the processing

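Counts of interferon genes called stayed within 1.5 times of their value, and no named gene changed sign while called, under limma-voom, DESeq2 size factors, total gene counts, both filters and a block for cell line alone. DESeq2 called 5 for MMS against 3. Without the term for line and title form, the only replicate block the design has, doxorubicin had 5 calls, etoposide 0, MMS 0 and doxorubicin against etoposide 1. Leaving out 1 library at a time gave 13 to 20 calls for doxorubicin, 1 to 10 for etoposide, 0 to 4 for MMS, 11 to 16 for doxorubicin against etoposide (11 without U2OS doxorubicin), 33 to 36 for the difference between the lines and 0 for paclitaxel and for the line by treatment term. That term could not be fitted without U2OS DMSO. Within MDA-MB231, etoposide had 8 genes past 2-fold with a minimum of 1 CPM and 9 against the other DMSO library, paclitaxel 0 with an offset of 2 CPM and 7 against the other DMSO library, and MMS 4 against the other DMSO library. The cause was not tested. Of 86 member calls, 39 held in every alternative, and 33 of these were of the difference between the lines. For doxorubicin 5 of 21 held (IRF3, STAT2, IFI6, PARP14 and SP100), for etoposide 0 of 8 and for MMS 0 of 3. For doxorubicin against etoposide 1 of 17 held. Setting aside the fit without a replicate block, 11 held for doxorubicin, 1 for etoposide, 0 for MMS and 9 for doxorubicin against etoposide. Calls kept in every alternative were not counted over all genes. Whether calls of interferon genes were lost more often than those of other genes is therefore not known. Where an arm is left with 1 library, its spread is taken from the others. Genes with few reads in U2OS (CXCL10, CXCL11, IFI27, XAF1, MX2, RSAD2) have folds that depth limits.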
